A study of Rattus norvegicus with 6 samples.

Results

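Organic ion carriers and drug efflux pumps were compared between 2 groups of TGF-β1-treated NRK-52E cells, of which one had received a lentivirus with an shRNA against AMPKα2 and the other a control lentivirus. The members were all genes whose single platform symbol belongs to the organic ion carriers Slc22a and Slc47a, the organic anion carriers Slco, or the ATP-binding cassette families Abcb, Abcc and Abcg. They number 52 of 14217 genes, with 16 in Slc22a, 1 in Slc47a, 13 in Slco, 7 in Abcb, 9 in Abcc and 6 in Abcg. Where a gene had several probe sets, the one whose mean across all 6 arrays was highest was read. Slc47a2, Slco4c1 and Abcb1b were not analysed here.

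NRK-52E cells are an established line derived from rat renal tubule. The arrays address how transcript levels change when AMPKα2, a catalytic subunit of AMP-activated protein kinase, is targeted in cells that TGF-β1 drives towards a mesenchymal state. All cells received 10 ng/mL TGF-β1 for 24 h, which the control cells share, and each group had 3 arrays. The labels call these biological replicates without saying whether each came from its own infection, and if they did not, the p-values measure technical spread only.

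In the kidney, proximal tubule cells clear drugs and metabolites in steps. Carriers of the Slc22a family bring organic anions and cations in from the blood side, where anions enter in exchange for dicarboxylates. Mate carriers of the Slc47a family and ATP-driven pumps such as the multidrug resistance proteins of the Abcc family, P-glycoprotein and Abcg2 then move them into the urine. Slco carriers take up larger amphipathic anions such as bile acids, steroid conjugates, thyroid hormones and prostaglandins.

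Prkaa2, which encodes the targeted AMPKα2, read 6.64, 6.76 and 6.49 with the shRNA and 6.83, 6.79 and 6.89 with the control virus, in deposited log2 units. The groups did not overlap, but the log2 fold change of -0.21 (SE 0.09) missed the threshold (limma, adjusted p = 0.0552). Median centring made it -0.42, which passed (limma, adjusted p = 0.00145), while quantile normalization (-0.05) and cyclic loess (-0.15) gave no call. Whether the knockdown shows thus differed with the scaling, and groups are named as labelled. The AMPKα2 shRNA arrays had a narrower range of values. Their SD over probe sets was 1.76 to 1.82, against 2.17 to 2.19 on the control arrays, and their medians were 6.04 to 6.05 against 5.82 to 5.83. On those arrays most genes with low values read higher and most genes with high values read lower. Changes are therefore read beside those of genes of like level and after cyclic loess. This scaling reduces differences between arrays that follow the level, but some remained by control mean. After it, genes with a control mean of 5 to 6 had a median change of 0.37, and those at 9 to 10 -0.18.

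Among the 52 transporter genes, 37 rose, 11 fell and 4 did not pass (limma, adjusted p under 0.05). Over all genes 43.6% rose and 41.5% fell, or 85.1% in either direction. The median log2 fold change was 0.63 for the transporter genes and 0.05 for all genes. A rise of 2-fold or more was measured for 14 transporter genes (11.6% of all genes), and a fall of that size for 2 (18.6% of all genes). These shares depend on the level. At a control mean under 6, 13 of 39 transporter genes and 1299 of all 5420 genes rose that far, and 0 and 44 fell. At 6 or more, 1 of 13 transporter genes and 355 of all 8797 genes rose that far, and 2 and 2595 fell. The groups did not overlap for 48 of 52, where 87.1% of all genes did not overlap.

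The direction differed with the level. Of 13 transporter genes with a control mean of 6 or more, 3 rose and 9 fell, and of 8797 genes at that level 18.3% rose and 64.5% fell. The 39 with a control mean under 6 had 34 that rose and 2 that fell, against 84.6% and 4.02% of the 5420 genes at that level. The median change was -0.62 in the first set (-0.53 for all genes of that level) and 0.76 in the second (0.71 for all genes of that level). Both shares thus lay near those of the background. The 2 genes just above the limit, Abcb8 at 6.12 and Slc22a18 at 6.13, and the 2 just below it, Slco3a1 at 5.93 and Slc22a8 at 5.86, were all higher on the AMPKα2 shRNA arrays. When the split used the mean over all 6 arrays, 9 of the 19 genes at 6 or more rose and 9 fell (24.0% and 59.6% of all genes at that level), and of the 33 under 6, 28 rose and 2 fell (79.9% and 7.9% of all genes at that level).

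**Figure D1:**
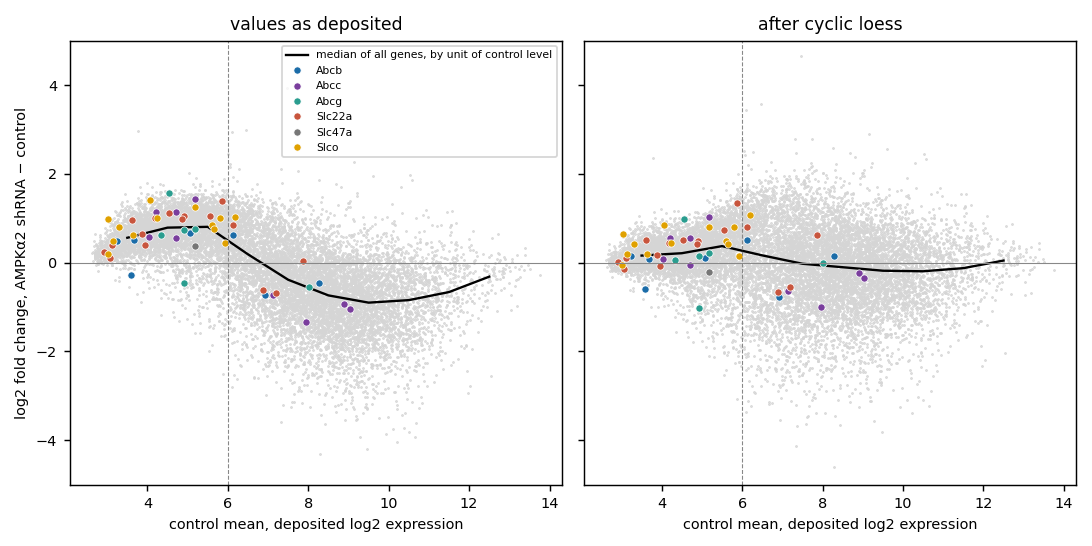
Log2 fold change against the control mean for all 14217 genes (grey) and the 52 transporter genes (coloured by family), as deposited (left) and after cyclic loess (right), with the median of all genes by unit of control level as a black line. As deposited, 34 of 39 transporter genes left of the dashed line at 6 rose and 9 of 13 at or right of it fell, and most follow the black line.

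After cyclic loess, 24 transporter genes rose and 9 fell, where 40.2% of all genes rose and 31.5% fell. At a control mean of 6 or more 4 rose and 7 fell (37.2% and 43.2% of genes at that level), and under 6 20 rose and 2 fell (45.2% and 12.6%). After quantile normalization 27 rose and 8 fell (43.8% and 28.9% of all genes), and after median centring 32 rose and 11 fell (35.0% and 48.2%). The median change after cyclic loess was 0.18, against 0.09 for all genes. As deposited and after quantile normalization, cyclic loess and median centring alike, 23 rose (25.5% of all genes) and 8 fell (26.4% of all genes). Under a control mean of 6, 20 of 39 rose and 2 fell in all 4 scalings, against 2449 and 218 of all 5420 genes. At 6 or more, 3 of 13 rose and 6 fell, against 1179 and 3541 of all 8797 genes. The 23 were 9 Slco genes, 8 Slc22a genes, 3 Abcc genes, 2 Abcg genes and 1 Abcb gene. The 8 that fell were 3 Abcc, 2 Slc22a, 2 Abcb genes and 1 Abcg gene.

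**Figure D2:**
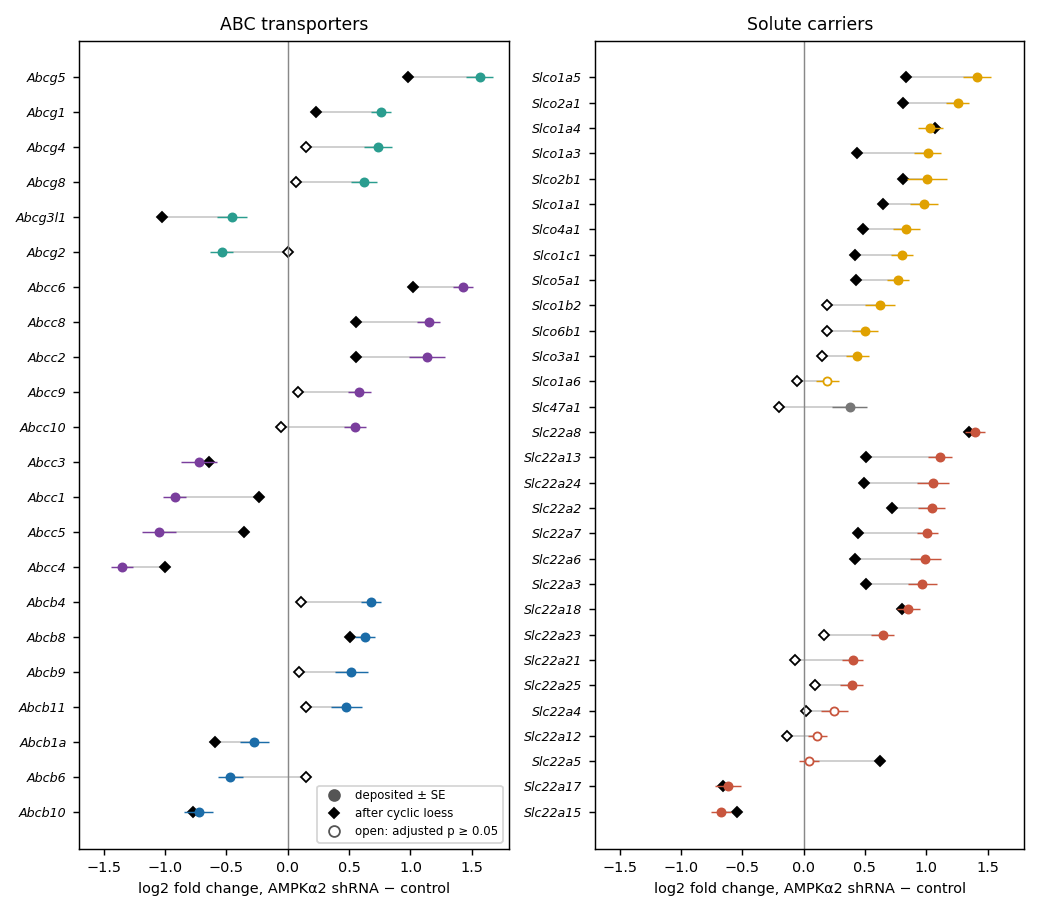
Log2 fold change of each transporter gene, AMPKα2 shRNA minus control, as deposited (circles with SE) and after cyclic loess (diamonds), with open symbols where adjusted p was 0.05 or more. No Slco gene lay below 0 as deposited, whereas 4 of 9 Abcc genes did.

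Promoter sequences show a feature that the choice of members did not use, their CpG content. RefSeq promoters of the rat assembly GRCr8 were matched for 43 of 52 members, and the 250 bases before the gene start were used. The sequences of 2 genes that rose and 2 that fell in all 4 scalings, chosen after their values were seen, follow 5′ to 3′ on the gene's strand, with CpG dinucleotides in capitals. Slc22a8 lies at chr1:214927034-214927283 (+ strand), Slco1a4 at chr4:176495847-176496096 (- strand), Abcc4 at chr15:102181365-102181614 (- strand) and Abcc1 at chr10:1162368-1162617 (- strand).
Slc22a8: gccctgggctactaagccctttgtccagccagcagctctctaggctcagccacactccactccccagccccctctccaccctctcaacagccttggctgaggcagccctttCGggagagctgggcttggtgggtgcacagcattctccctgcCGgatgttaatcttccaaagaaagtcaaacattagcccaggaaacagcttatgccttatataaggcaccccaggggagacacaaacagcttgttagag
Slco1a4: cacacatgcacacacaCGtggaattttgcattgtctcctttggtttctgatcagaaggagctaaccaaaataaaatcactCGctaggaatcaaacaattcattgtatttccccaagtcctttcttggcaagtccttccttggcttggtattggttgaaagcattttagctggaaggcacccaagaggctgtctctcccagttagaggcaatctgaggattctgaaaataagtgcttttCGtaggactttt
Abcc4: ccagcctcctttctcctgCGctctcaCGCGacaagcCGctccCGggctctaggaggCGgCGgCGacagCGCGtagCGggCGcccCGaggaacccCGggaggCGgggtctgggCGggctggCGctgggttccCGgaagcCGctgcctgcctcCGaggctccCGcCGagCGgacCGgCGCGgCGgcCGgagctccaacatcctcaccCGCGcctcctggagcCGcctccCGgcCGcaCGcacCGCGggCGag
Abcc1: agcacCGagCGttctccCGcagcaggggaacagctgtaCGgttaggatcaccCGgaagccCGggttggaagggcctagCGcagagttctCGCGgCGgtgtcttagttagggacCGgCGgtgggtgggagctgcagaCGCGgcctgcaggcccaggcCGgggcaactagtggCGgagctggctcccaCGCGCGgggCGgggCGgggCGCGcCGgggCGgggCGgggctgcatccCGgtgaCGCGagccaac
The promoters of Slc22a8 and Slco1a4, which rose, hold 2 and 3 CpG dinucleotides. Those of Abcc4 and Abcc1, which fell, hold 37 and 29. The pairs also differ in level, with control means of 5.86 and 6.18 for the first and 7.95 and 8.90 for the second.

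The observed over expected CpG ratio had a median of 0.82 in 11 members with a control mean of 6 or more and 0.39 in 32 members under 6. All genes tested showed the same order, at 0.77 and 0.44. The 4 genes printed above do not stand for all members. Slco4a1 and Slco2a1, which rose in all 4 scalings, had ratios of 0.90 and 0.81. Abcb1a and Abcg3l1, which fell in all 4, had 0.39 and 0.40. Within the upper level, the 7 members that fell had ratios of 0.58 to 0.99 (median 0.91), and the 3 that rose had 0.27 to 0.70 (median 0.38). Over all genes of that level the medians were 0.79 for those that fell and 0.68 for those that rose, so the order was shared and the gap was smaller. These are descriptions with no test, and the genes within a level class still differ in level.

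**Figure D3:**
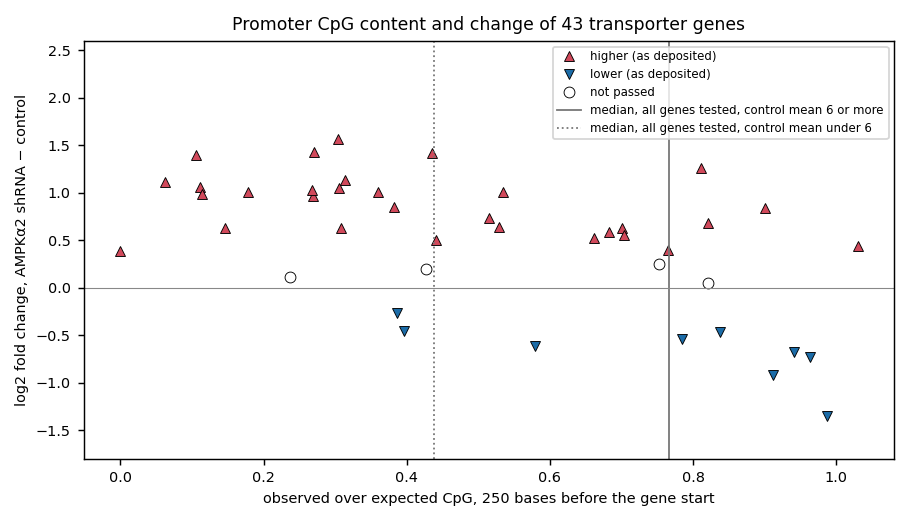
Log2 fold change as deposited against the observed over expected CpG ratio in the 250 bases before the gene start, for 43 transporter genes, with vertical lines at the medians of all genes tested by level class. Of the 9 falling genes shown, 6 lie between 0.78 and 0.99, while rising genes span 0 to 1.03.

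Short motifs were searched on both strands of the same window. The HNF1 core GTTAAT, part of the site of a tubule and liver transcription factor, was found in 5 of 43 members (11.6%) and in 4.31% of 13192 promoters of genes tested. The 5 were Abcc2, Slc22a8, Slc22a24, Slc22a25 and Slco1b2, all with a control mean under 6, a level at which 5.46% of promoters held it. Slc22a8 has it 93 bases before the start. The antioxidant response element TGACNNNGC was found in 4 members (9.3%, against 12.1%), and the xenobiotic response element core GCGTG, which contains a CpG, in 17 (39.5%, against 39.6%). A CCAAT box was found in 16 (37.2%, against 34.6%) and the TATA box TATAAA in 7 (16.3%, against 8.04%). All 7 with the TATA box were among the 32 under 6 (21.9%), a level at which 11.6% of promoters held it. None of these matches shows that a factor binds there.

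Among the 7 organic anion carriers of the Slc22a family described here, 6 rose as deposited and 5 after cyclic loess, and Slc22a12 passed in neither. All 7 had control means under 6. At that level 84.6% of all genes rose as deposited (median 0.71) and 45.2% after cyclic loess (median 0.22). Slc22a8, which encodes OAT3, an uptake carrier of the basolateral membrane, read 7.20, 7.26 and 7.31 with the AMPKα2 shRNA and 5.93, 5.80 and 5.85 with the control virus, the order used for all values below. The groups lay apart by more than 1 log2 unit. It rose by 1.40 (SE 0.08, limma, adjusted p = 8.09e-08), with 1.54 by quantile normalization and 1.35 by cyclic loess. Its other probe set, at a control level of 3.41, rose by 0.76. Slc22a6, which encodes OAT1, the carrier that gives para-aminohippurate its renal clearance, read 5.55, 5.96 and 6.08 against 4.85, 4.90 and 4.86. It rose by 0.99 (SE 0.13), and by 0.42 after cyclic loess. Slc22a7, which encodes OAT2, rose by 1.01 (SE 0.08), Slc22a13, a urate and nicotinate carrier, rose by 1.11 (SE 0.10) and Slc22a24 rose by 1.06 (SE 0.13). After cyclic loess these 3 rose by 0.44, 0.51 and 0.49. Slc22a25 rose by 0.39 as deposited, but cyclic loess left 0.10, which missed the threshold. Slc22a12, which encodes the urate exchanger URAT1, stayed near the bottom of the scale, at 3.12, 3.22 and 3.21 against 3.05, 3.08 and 3.08, and its change of 0.11 did not pass (adjusted p = 0.199, limma).

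Among cation and carnitine carriers, Slc22a2, which encodes OCT2, the basolateral cation carrier of rat kidney, read 6.66, 6.39 and 6.76 against 5.68, 5.42 and 5.57. It rose by 1.04 (SE 0.11, limma, adjusted p = 6.98e-06), and by 0.72 after cyclic loess. Slc22a3, which encodes the extraneuronal monoamine carrier OCT3 and lies next to Slc22a2, rose by 0.97 (SE 0.12) from 3.61, and by 0.51 after cyclic loess. The carnitine carrier gene Slc22a5, OCTN2, was the member at 6 or more that did not pass. It read 7.99, 7.82 and 7.91 against 7.83, 7.86 and 7.91, and the groups overlapped. Its change of 0.04 (SE 0.08, limma, adjusted p = 0.633) stood where genes with a control mean of 7 to 8 had a median of -0.39. After quantile normalization it rose by 0.65 and after cyclic loess by 0.63, while median centring gave -0.17, which did not pass. Its neighbours Slc22a21 and Slc22a4, at control means of 3.95 and 2.92, had changes of 0.40, which passed, and 0.25, which missed the threshold (adjusted p = 0.051, limma). Neither passed after cyclic loess, at -0.07 and 0.02. Slc22a4 passed with the replicate number as a block (adjusted p = 0.0308, limma), when AMPKα2 shRNA replicate 1 was left out (0.028) and when control replicate 3 was (0.0374). Slc47a1, which encodes the apical proton-coupled exchanger MATE1, read 5.73, 5.24 and 5.69 against 5.30, 4.94 and 5.28, with overlapping groups. Its change of 0.37 (SE 0.14) passed narrowly (limma, adjusted p = 0.0304). It did not pass without AMPKα2 shRNA replicate 1 (0.29) or 3 (0.31) or without control replicate 2 (0.26), nor after cyclic loess (-0.20) or quantile normalization (-0.02).

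The other Slc22a members parted. Slc22a15, an orphan carrier, fell by 0.68 (SE 0.08), from 7.13, 7.20 and 7.25 on the control arrays to 6.52, 6.48 and 6.56. Slc22a17, which encodes a receptor of lipocalin-2, fell by 0.62 (SE 0.11), from 6.98, 6.93 and 6.74 to 6.08, 6.34 and 6.37. Both also fell after cyclic loess, by 0.55 and 0.66. Slc22a18, an imprinted gene, rose by 0.85 (SE 0.09), from 6.25, 5.96 and 6.17 to 7.01, 6.93 and 7.01, and by 0.81 after cyclic loess. For these 3 genes the groups did not overlap, and the largest adjusted p was 0.000247 (limma). Slc22a23 rose by 0.64, of which cyclic loess left 0.17, under the threshold for a call.

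Of 13 Slco genes, 12 rose and 0 fell as deposited, with a median of 0.84, and 9 rose and 0 fell after cyclic loess, with 1 control mean at 6 or more. Of the 12 under 6, 11 rose as deposited with a median of 0.82, near the 84.6% and the median of 0.71 for all genes at that level. Every Slco change as deposited was above 0, with 0.19 the lowest, so no p threshold could have counted a fall. At levels under 6, 45.2% of all genes rose and 12.6% fell after cyclic loess. Slco1a4, a broad carrier that takes up digoxin and bile acids, read 7.18, 7.06 and 7.41 against 6.11, 6.18 and 6.26. It rose by 1.03 (SE 0.10, limma, adjusted p = 3.69e-06), and by 1.07 after cyclic loess. Slco1a4 belongs to a run of 7 neighbouring members, Slco1c1, Slco1b2, Slco1a4, Slco1a1, Slco1a3, Slco1a6 and Slco1a5. Of these 6 rose as deposited and 5 after cyclic loess. Slco1a5 had the largest change of the run as deposited, 1.42 (SE 0.11), with 5.50, 5.50 and 5.43 against 4.08, 3.82 and 4.28, and rose by 0.84 after cyclic loess, less than Slco1a4. Slco1a1 rose by 0.98, Slco1a3, a kidney carrier of methotrexate, by 1.01 and the thyroxine carrier Slco1c1 by 0.80. After cyclic loess these 3 rose by 0.64, 0.44 and 0.42. Slco1a6 was at 3.08, 3.35 and 3.18 against 2.97, 3.06 and 3.01, and its change of 0.19 did not pass (adjusted p = 0.0701, limma), but passed without AMPKα2 shRNA replicate 1 (0.25). The Slco1a genes are close copies of each other, and the probe sequences were not used here, so signal shared between them cannot be told apart. The other probe set of Slco1a3, at a control level of 2.65, had a change of 0.12 without a call, while averaging both gave a rise of 0.57. Slco1b2 rose by 0.62 and Slco6b1 by 0.50, and neither passed after cyclic loess (0.19 for each).

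Slco2a1, Slco2b1, Slco4a1, Slco5a1 and Slco3a1 rose from control levels between 5 and 6. All genes at that level had a median change of 0.81 as deposited and 0.37 after cyclic loess. As deposited, Slco5a1 and Slco3a1 lay below that median and Slco4a1 lay close to it. Slco2a1, which encodes the prostaglandin transporter, read 6.26, 6.49 and 6.55 against 5.15, 5.18 and 5.21. It rose by 1.26 (SE 0.09, limma, adjusted p = 4.46e-07), and its other probe set rose by 1.01. Slco2b1, a carrier of steroid sulphates, read 6.82, 6.44 and 7.19 against 5.90, 5.89 and 5.62. It rose by 1.01 (SE 0.16), and its other probe set by 1.23. The AMPKα2 shRNA arrays differed among themselves by 0.75 in this gene yet all lay above the control arrays. Slco4a1, a thyroid hormone carrier, read 6.49, 6.25 and 6.56 against 5.78, 5.44 and 5.56 and rose by 0.84 (SE 0.11). The orphan Slco5a1 read 6.42, 6.42 and 6.45 against 5.78, 5.69 and 5.52 and rose by 0.77 (SE 0.09). Second probe sets for Slco4a1 and Slco5a1 rose as well, by 0.82 and 1.13. After cyclic loess the rises of Slco2a1, Slco2b1, Slco4a1 and Slco5a1 were 0.81, 0.81, 0.48 and 0.43. Slco3a1 read 6.47, 6.22 and 6.40 against 5.96, 5.84 and 5.99 and rose by 0.44 (SE 0.09). Its other probe set had -0.06, the mean of both rose by 0.19, and cyclic loess gave 0.15, which missed the threshold.

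**Figure D4:**
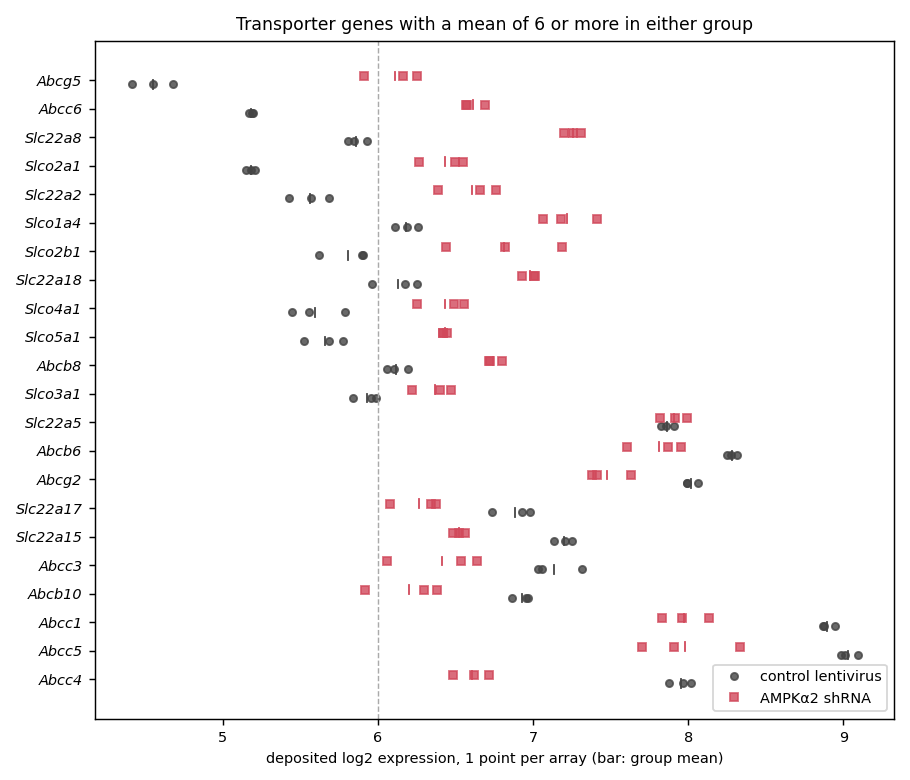
Deposited log2 values by array for the 22 transporter genes with a mean of 6 or more in either group, ordered by change, with 3 control arrays (circles), 3 AMPKα2 shRNA arrays (squares) and a bar at each group mean. Genes with a control mean under 6 entered through their AMPKα2 shRNA mean, so they could only be higher. Slc22a5, at 7.82 to 7.99 and 7.83 to 7.91, is the gene whose groups overlap. Over all genes, 87.1% did not overlap.

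Genes of the Abcc family, which holds the multidrug resistance proteins and the sulfonylurea receptors, split by level. All 4 with a control mean of 6 or more fell and all 5 under 6 rose, where 64.5% of all genes at the upper level fell and 84.6% at the lower level rose. After cyclic loess 3 of the 5 under 6 rose (45.2% of all genes at that level). The 4 at 6 or more fell (43.2% of all genes at that level). Abcc4, the efflux pump MRP4 for cyclic nucleotides, prostaglandins and organic anions, had the largest fall of all 52 members as deposited, while after cyclic loess Abcg3l1 fell further. It read 6.49, 6.71 and 6.62 against 7.88, 7.96 and 8.02, and the groups lay apart by more than 1 log2 unit. It fell by 1.35 (SE 0.09, adjusted p = 2.01e-07 by limma), where genes with a control mean of 7 to 8 had a median change of -0.39, and its change was -0.999 after cyclic loess. Abcc3, a basolateral pump of glucuronides, read 6.64, 6.53 and 6.06 against 7.06, 7.03 and 7.31. It fell by 0.72 (SE 0.14), and by 0.65 after cyclic loess.

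Abcc1, which encodes MRP1, a pump of glutathione conjugates, read 8.14, 7.96 and 7.83 against 8.87, 8.88 and 8.94. It fell by 0.92 (SE 0.09, limma, adjusted p = 4.72e-06), while genes with a control mean of 8 to 9 had a median of -0.74, and its change after cyclic loess was -0.23. Abcc5, a pump of cyclic nucleotides, read 8.33, 7.91 and 7.70 against 8.99, 9.09 and 9.01. Its fall of 1.05 (SE 0.14) compared with a median of -0.90 for genes with a control mean of 9 to 10. After cyclic loess its change was -0.35, and that of -0.33 by quantile normalization missed the threshold. A further probe set of Abcc5 fell by 0.69.

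Abcc6, a pump whose loss causes pseudoxanthoma elasticum, read 6.57, 6.58 and 6.69 against 5.20, 5.19 and 5.17. The spread within each group was small beside the difference. Abcc6 rose by 1.43 (SE 0.08, adjusted p = 6.08e-08 by limma), and by 1.02 with cyclic loess. Abcc2, which encodes the apical pump MRP2, read 5.57, 4.96 and 5.48 against 4.29, 4.05 and 4.26. It rose by 1.13 (SE 0.15), and by 0.56 after cyclic loess. Genes with a control mean of 4 to 5 had a median change of 0.79 as deposited. Abcc8, the sulfonylurea receptor SUR1, rose by 1.15 (SE 0.09) and by 0.56 after cyclic loess. Abcc9, the receptor SUR2, and Abcc10 rose by 0.58 and 0.55, and neither passed after cyclic loess (0.08 and -0.05).

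Abcb members of the mitochondrial membrane parted. Abcb10, which supports haem synthesis, read 6.30, 5.92 and 6.38 against 6.86, 6.96 and 6.95. It fell by 0.73 (SE 0.12, limma, adjusted p = 0.000165), and by 0.77 after cyclic loess. Its other probe set, at a control level of 5.37, gave -0.07 without a call, and the 2 averaged fell by 0.40. Abcb8, a subunit of a mitochondrial potassium channel complex, read 6.72, 6.80 and 6.71 against 6.06, 6.10 and 6.19. It rose by 0.63 (SE 0.08), and by 0.50 after cyclic loess. Abcb6, a porphyrin carrier, read 7.95, 7.87 and 7.61 against 8.25, 8.32 and 8.27. Its change of -0.47 (SE 0.10) was smaller than the median of -0.74 at control means of 8 to 9, and it turned to 0.15 after cyclic loess and 0.18 after quantile normalization, neither of which passed.

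P-glycoprotein and the canalicular pumps were at low values. Abcb1a, which encodes 1 form of P-glycoprotein, read 3.16, 3.48 and 3.31 against 3.40, 3.59 and 3.77, with overlapping groups. Its change of -0.27 (SE 0.12) passed narrowly (limma, adjusted p = 0.0469). It did not pass without AMPKα2 shRNA replicate 1 (-0.19) or 3 (-0.27), without control replicate 2 (-0.27) or 3 (-0.18), or with array weights, and its other probe set had -0.22, which did not pass. Other probe sets were called in a separate fit over all probe sets. In that fit the one used for Abcb1a also missed the threshold (limma, adjusted p = 0.0522). After cyclic loess Abcb1a fell by 0.60 in the fit over genes. Abcb1a and Abcg3l1, which fell by 0.46 (1.02 after cyclic loess), were the members under 6 that fell. Abcb4, the phosphatidylcholine floppase, rose by 0.68, the bile salt pump gene Abcb11 by 0.48 and the lysosomal peptide carrier gene Abcb9 by 0.52. None of these 3 passed after cyclic loess, at 0.11, 0.15 and 0.09.

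Abcg2, the efflux pump for urate and many drugs, read 7.41, 7.63 and 7.38 against 7.99, 8.06 and 7.99. It fell by 0.54 (SE 0.09, limma, adjusted p = 0.000225) as deposited, less than the median of -0.74 at its level, and no call was left by quantile normalization (0.04) or by cyclic loess, which put its change within 0.01 of 0. Abcg5, which forms a sterol pump with Abcg8, had the largest rise of all members as deposited, while after cyclic loess and quantile normalization it was Slc22a8. It read 6.25, 5.91 and 6.16 against 4.55, 4.68 and 4.41, and rose by 1.56 (SE 0.11, limma, adjusted p = 2.92e-07), and by 0.98 after cyclic loess. Its neighbour and partner Abcg8 rose by 0.62 (SE 0.11), from 4.30, 4.48 and 4.25 to 4.76, 5.04 and 5.09, but by cyclic loess had 0.06, which missed the threshold. The cholesterol efflux gene Abcg1 rose by 0.76 and by 0.23 after cyclic loess, and its other probe sets gave -0.20, which did not pass, and 1.25. Abcg4 rose by 0.73, and its 0.15 after cyclic loess did not pass.

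Where a member had more than 1 probe set, the readings mostly shared a direction. The 15 such members had 17 other probe sets, of which 11 passed in the direction of the one used, 6 did not pass and 0 passed in the opposite direction. The other probe sets were called in a fit over all 31042 probe sets, and the ones used in the fit over genes.

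Genes that work with these carriers were described by lists, whose counts are read against all genes of like level: 18.3% rose and 64.5% fell at a control mean of 6 or more, and 84.6% rose and 4.02% fell under 6. Of 10 measured exchange partners, which supply the dicarboxylate, sulphate, proton or sodium gradients that organic anion carriers use, 10 rose as deposited and 7 after cyclic loess, with medians of 0.78 and 0.72, and 0 fell in either. Of these, 6 were under 6, where 6 rose as deposited and 3 after cyclic loess (45.2% of all genes at that level). The 4 at 6 or more rose in both (37.2% of all genes at that level after cyclic loess). Slc26a1, a sulphate exchanger, rose by 1.17, the citrate carrier gene Slc13a5 by 1.17 and the dicarboxylate carrier gene Slc13a2 by 1.13, and after cyclic loess by 1.003, 1.21 and 1.03. Of 10 scaffold and trafficking genes, 2 rose and 8 fell, with a median of -1.04 (-0.38 after cyclic loess). The 8 that fell were among 9 with a control mean of 6 or more, and genes with a control mean of 9 to 10, near the median level of this list, had a median of -0.90. The membrane linkers Rdx and Ezr fell by 1.54 and 1.36, and Nherf1, the scaffold that tethers apical carriers, fell by 1.32. After cyclic loess these 3 fell by 0.82, 0.77 and 0.60, while Msn rose by 0.66 and by 1.36. Cyclic loess left 1 of the list higher and 7 lower, all at 6 or more. At that level 37.2% of all genes rose and 43.2% fell after cyclic loess.

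Of 18 measured regulators, 8 rose and 5 fell (median 0.05), and all that rose were under 6 and all that fell at 6 or more. The nuclear receptor genes Nr1h4 (FXR), Ppara and Vdr rose by 1.31, 1.13 and 1.01, and by 0.76, 0.60 and 0.41 after cyclic loess. Sp1, Cebpb and Nfe2l2, the gene of the antioxidant response factor NRF2, fell by 0.92, 0.85 and 0.76. After cyclic loess Sp1 and Nfe2l2 did not pass, at -0.20 and -0.16, and Cebpb fell by 0.17. Hnf4a, a regulator of proximal tubule carriers, rose by 0.70, and its 0.13 after cyclic loess did not pass.

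Of 16 nucleoside, peptide and bile acid carrier genes, 10 rose, 8 of them under 6, and 3 fell (median 0.38). Slc28a3 rose by 1.20 and Slc28a2, another concentrative nucleoside carrier, fell by 0.67, with 0.80 and -1.25 after cyclic loess. Of 31 conjugation enzyme genes, 16 rose, 12 of them under 6, and 9 fell, 8 of them at 6 or more (median 0.22, and 0.23 by cyclic loess). Mgst3 and Gstt1, which act on glutathione conjugation, rose by 1.18 and 1.08 and the sulfotransferase gene Sult1a1 by 0.999, while Sult1b1 and Gstm1 fell by 1.12 and 0.99. After cyclic loess Mgst3, Gstt1 and Sult1a1 rose by 0.85, 1.06 and 0.75, and Sult1b1 and Gstm1 fell by 1.57 and 0.48. Of 15 genes of the other ATP-binding cassette families, 8 rose, 5 of them under 6, and 5 fell, all at 6 or more. The cholesterol pump gene Abca1 rose by 1.59 (1.62 after cyclic loess), and the peroxisomal Abcd3 and the ribosome recycling factor Abce1 fell by 1.47 and 1.34 (0.86 and 0.65 after cyclic loess).

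Of 41 cell type markers with a control mean under 6, 37 rose as deposited and 25 after cyclic loess, where 84.6% and 45.2% of all genes at that level rose. Of 10 proximal tubule markers 9 rose and 0 fell, with a median of 0.93 (0.46 after cyclic loess), and their mean log2 value was 5.996 to 6.12 on the AMPKα2 shRNA arrays and 5.12 to 5.22 on the control arrays. The water channel gene Aqp1 rose by 1.39 (1.53 after cyclic loess), and Lrp2, the megalin gene, rose by 0.70 from 5.57 (0.30 after cyclic loess). Most markers listed for fibroblasts, endothelium and leukocytes rose as well. Of 6 fibroblast markers 6 rose (mean 6.02 to 6.16 against 4.87 to 4.88), of 5 endothelial markers 4 (5.21 to 5.40 against 4.46 to 4.68), of 5 leukocyte markers 4 (6.27 to 6.37 against 5.85 to 5.90) and of 4 podocyte markers 2 (6.05 to 6.38 against 5.89 to 6.03). In the leukocyte and podocyte lists 1 marker each fell. Of 10 markers of the loop, distal tubule and collecting duct, 9 rose (5.45 to 5.49 against 4.59 to 4.63). After cyclic loess 5 fibroblast, 3 endothelial, 4 leukocyte, 1 podocyte and 6 of these distal markers rose. All arrays were of the NRK-52E line, so these lists name marker genes and not cells known to be present. Any link between the marker changes and the transporter changes was not tested. Of 9 tubule epithelium markers, 7 rose and 1 fell as deposited (5.86 to 5.89 against 5.38 to 5.46), and 2 rose and 1 fell after cyclic loess, with a median of -0.06. Krt8 stood at 12.49 on the control arrays, whereas Krt18, Epcam and Cdh1 stood at 3.53, 2.97 and 4.31, where the lowest deposited value was 2.37. No detection calls were used here, so it is not known which low values lie above background. Whether fewer NRK-52E cells held a transcript or each cell held less of it cannot be told apart in such bulk samples.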

How the data were processed

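Trizol-extracted RNA, 10 µg per array, was labelled as biotin cRNA with a one-cycle Affymetrix kit, per the labels. The authors deposited log2 expression for every probe set. Background correction, summarisation and normalization are not given in the sources used here. Of 31099 probe sets, 57 array controls were left out, and 20826 of the other 31042 had 1 platform symbol, which gave 14217 genes. All 52 members matched RefSeq (GRCr8) by Entrez identifier with the symbol unchanged.

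The comparison used lmFit and eBayes of limma 3.58.1 (R 4.3.3), without covariates, over all genes, with Benjamini-Hochberg adjustment at 0.05. Changes are AMPKα2 shRNA minus control. The fit was tested on simulated data in which few genes changed and both groups had the same spread per gene. Here 85.1% of genes were called, and the median SD was 0.13 with the AMPKα2 shRNA and 0.07 in the control. The simulation does not cover such conditions. With 3 arrays against 3 an exact permutation test cannot give a 2-sided p under 0.1. The members and lists were chosen with earlier results of these data known. The genes named are those with a mean of 6 or more in either group, the best-known renal transporters, and the 5 largest rises and falls. From each other list, up to 3 rises and falls were named. Other members were named to account for the families, and Hnf4a and the single cell type markers were picked after their values were seen. Alternatives were quantile normalization, cyclic loess (3 iterations), median centring, removal of the lowest 25% of genes, the mean of probe sets, array weights, a replicate block, a split by the mean over 6 arrays, and leaving out each array.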

Additional observations from a re-analysis of the deposited data

How the results depend on the processing

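The counts of transporter genes moved mainly with the scaling and the filter. After cyclic loess 24 rose, 20 of them under a control mean of 6. Without the lowest 25% of genes 15 rose, 12 of them under 6, and 0 under 6 fell, because 27 members, among them Abcb1a and Abcg3l1, had left the fit. With array weights 1 member under 6 fell, since Abcb1a no longer passed. With the split by the mean over all 6 arrays, 9 genes at 6 or more rose in place of 3. Leaving out 1 array gave 36 to 38 rises, 10 to 11 falls and 1 to 2 falls under 6, and it left the counts at 6 or more at 3 and 9. The sign turned after cyclic loess for Abcb6 (0.15), Abcc10 (-0.052), Slc22a12 (-0.14), Slc22a21 (-0.068), Slc47a1 (-0.20) and Slco1a6 (-0.052). After quantile normalization it turned for Abcb6 (0.18), Abcg2 (0.036), Slc22a12 (-0.11), Slc22a21 (-0.044), Slc47a1 (-0.016) and Slco1a6 (-0.029), and after median centring for Slc22a12 (-0.10), Slc22a5 (-0.17) and Slco1a6 (-0.023). None of these turned values passed, and the cause was not tested. With the replicate block 38 transporter genes rose and 11 fell, and Slc22a4 was the member whose call changed. Replicate numbers did not pair the samples, with correlations of -0.02, 0.01 and -0.10 between arrays of the same number. The number of arrays, and the lack of detection calls for low probe sets, limit every value.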
